A study of Mus musculus with 4 samples.

Results

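The genes described here encode the proteins that bring long-chain fatty acids into the heart muscle cell, activate them, pass them into the mitochondrion and oxidise them there. They were chosen by name, 34 genes in all, and 32 of them had a row of their own among the 29595 gene rows of the table. Lipe, which encodes hormone-sensitive lipase, and Mlycd, which encodes malonyl-CoA decarboxylase, had no row under those names and were not analysed here. All 32 passed the filter on low counts and were tested in 1 fit over 16128 rows.

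RNA had been sequenced from the right ventricle of 4 adult mouse hearts from mice of a mixed C57BL/6 background. The groups were 2 Ezh2-deficient hearts (mutant 1 and mutant 3) and 2 wild-type hearts (wild type 1 and wild type 2), and no treatment is named for either. Ezh2 is a histone H3 methyltransferase of the Polycomb group, which holds genes in a repressed state. The labels do not state the sex, the deleted part of Ezh2, the cells in which it was deleted or the age beyond adult.

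Fatty acids are the main fuel of the adult heart. Lipoprotein lipase releases them from circulating triglyceride, Cd36 and fatty acid transport proteins carry them across the cell membrane, and acyl-CoA synthetases tie them to coenzyme A. The carnitine shuttle then moves the acyl groups through the inner mitochondrial membrane, where each turn of beta-oxidation shortens the chain and passes electrons through the electron transfer flavoprotein to the respiratory chain. Many of these genes are known targets of the nuclear receptors PPAR and ERR.

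The libraries held 18177642 to 23853394 reads, of which the 32 genes took 1.03% and 0.858% in mutant 1 and mutant 3 and 1.42% and 1.35% in wild type 1 and wild type 2. The share of mitochondrially encoded genes was 40.3% and 47.3% of reads in mutant hearts against 34.7% and 41.2%. Levels are given as CPM, the read count scaled to a common library size, after TMM scaling, a factor that brings the bulk of rows to the same level in every library. A nuclease step lowered abundant transcripts in all libraries, so levels are not proportional to RNA. The row for Ezh2, at 73 and 70 reads in mutant hearts against 77 and 67, overlapped between the groups and so gives no check of the labels. Reads of the Y-linked gene Ddx3y numbered 754 and 659 in mutant hearts against 2 in each wild type, so genotype and sex cannot be told apart in these hearts. In bulk tissue, fewer cells of a type and less RNA per cell cannot be told apart either.

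Most of the genes stood lower in the mutant ventricles, by modest amounts, and none passed the test over all rows. The fitted log2 fold change (mutant over wild type) was below 0 for 25 of the 32 genes, against 49.5% of all tested rows, and its median was -0.23 against 0.00 over all rows. Both mutants lay below both wild types for 16 of the 32 genes, against 22.4% of all tested rows, and above both for 2, against 22.3%. Of the 32 genes, 0 had an adjusted p under 0.05 in edgeR's quasi-likelihood test, where 0.130% of all rows did (0.0248% lower), and 0 in limma-voom, where 0.0868% did. At an unadjusted p under 0.05, 7 genes were lower (Slc27a1, Acot1, Cpt1a, Acacb, Acadvl, Hadhb and Acaa2), against 4.38% of all rows, and 0 were higher, against 6.49%. DESeq2 called 1 of the 32, Acot1, lower in the mutants, against 0.261% of rows lower and 1.18% in either direction. The genes are abundant: 20 of them had a mean level of 100 to 1000 CPM. Their median log2 fold change was -0.26, with 17 of 20 below 0, and that of the 709 rows in the same range was -0.03, with 52.2% below 0.

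**Figure D1:**
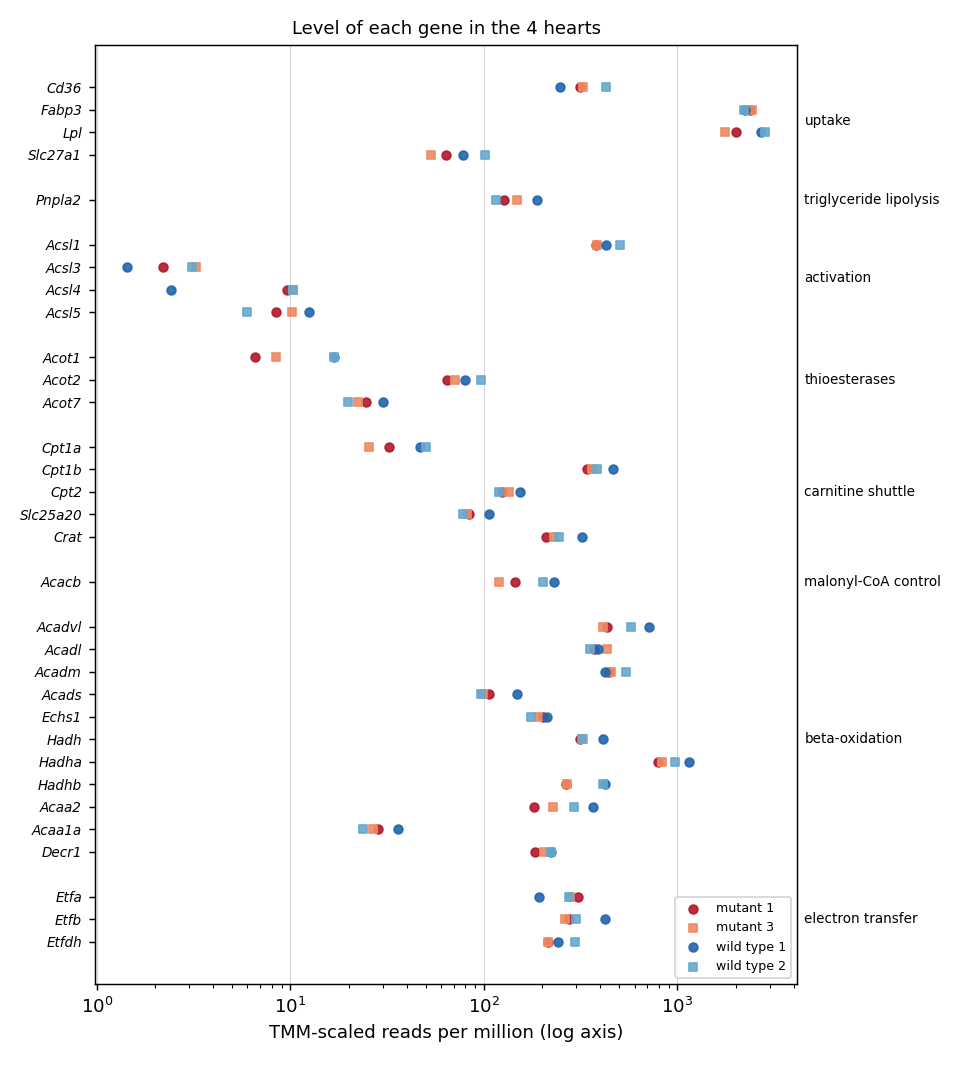
Level of each of the 32 genes in the 4 hearts, as TMM-scaled CPM on a log axis, grouped by step of the pathway, with 1 point per heart (red and orange for mutants, blue for wild types). Acot1, Cpt1a, Hadhb and Acacb show the mutant points left of both wild-type points, while Acsl4 ranges from 2.40 in wild type 1 to 10.3 in wild type 2.

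Uptake was split among its 4 genes, with the lipase and a transport protein lower in the mutants and the intracellular carrier level. Lpl (chr8:71404454-71431347 on mm9), which encodes lipoprotein lipase, stood at 2008 and 1757 CPM in mutant 1 and mutant 3 and at 2699 and 2850.2 CPM in wild type 1 and wild type 2. The mutants were at 67.9% of the wild-type mean, without overlap (log2 fold change -0.56 ± 0.26 SE, adjusted p = 0.494). Slc27a1 (chr8:74092826-74110607), which encodes fatty acid transport protein FATP1, had 64.0 and 53.4 CPM in the mutants against 77.7 and 101.5 CPM in the wild types. Both mutants were again below both wild types, with a log2 fold change of -0.61 ± 0.23 (adjusted p = 0.406). Within the span of Lpl lies a further row on the same strand, AK170106, with 6598 to 12237 reads per library, so reads of Lpl can be split between the rows.

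Fabp3, which encodes the heart fatty acid-binding protein that carries fatty acids through the cytosol, had the highest level per kilobase of transcript among the 32 genes, at 2904 CPM per kilobase in mutant hearts against 2706 in wild-type hearts. It read 2362 and 2417 CPM in the mutants and 2243 and 2210.3 CPM in the wild types, with a log2 fold change of 0.10 ± 0.26. That sign depends on the scaling: it was -0.19 with scaling by total counts and -0.33 with a correction for GC content and length of the transcript. Of the 50-base words of the longest Fabp3 transcript, 29.2% also occur in Fabp3-ps1. Cd36, the fatty acid translocase, was at 315 and 324 CPM in the mutants, between 246 CPM in wild type 1 and 428 CPM in wild type 2. Its difference between the wild types was thus larger than that between the groups, and its log2 fold change was -0.42 without wild type 1 and 0.37 without wild type 2.

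The step that frees fatty acids from triglyceride stored in the cell is represented by Pnpla2 (adipose triglyceride lipase). It stood at 127 and 147 CPM in the mutants and at 188 and 116 CPM in the wild types. The groups overlapped (log2 fold change -0.15 ± 0.27, adjusted p = 0.877), and the sign turned to 0.24 without wild type 1.

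Activation rests on Acsl1, the main long-chain acyl-CoA synthetase of heart muscle, which made up 95.5% of the summed CPM of the 4 synthetase genes. Acsl1 had 378 and 384 CPM in the mutants and 429 and 505 CPM in the wild types, without overlap (log2 fold change -0.29 ± 0.23, adjusted p = 0.674). The other synthetase genes were low and separated the wild types more than the groups. The X-linked Acsl4, which prefers arachidonic acid, had 205 and 204 reads in mutant hearts but 54 in wild type 1 and 205 in wild type 2. Its log2 fold change of 0.65 ± 0.56 rests on wild type 1, since it was -0.049 without that heart and 2.04 (adjusted p = 0.000102, range over its alternatives 0.000102 to 1.00) without wild type 2. Acsl3 was also lowest in wild type 1, with 47 and 64 reads in mutant hearts against 32 and 62, and overlaps a row for Utp14b on the same strand. For Acsl5, which lies over Zdhhc6 on the opposite strand, the wild types went the other way, with 8.45 and 10.2 CPM in the mutants, 12.4 CPM in wild type 1 and 5.99 CPM in wild type 2.

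Among the acyl-CoA thioesterases, which split acyl-CoA back into fatty acid and coenzyme A, Acot1 showed the lowest ratio of mutant to wild type of the 32 genes. Acot1 (chr12:85350452-85358619 on mm9), the cytosolic enzyme, had 140 and 166 reads in mutant hearts against 376 and 333 in wild-type hearts. Scaled, this was 6.53 and 8.42 CPM in the mutants and 16.7 and 16.8 CPM in the wild types, or 44.6% of the wild-type mean. The wild types were nearly equal, and the mutants lay below them with a log2 fold change of -1.16 ± 0.24. That difference did not pass in edgeR (adjusted p = 0.169) and did pass in DESeq2 (adjusted p = 0.0423). Over 15 alternatives it was lower in the mutants in 15 and called in 5, with adjusted p from 0.00196 to 1.00.

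Acot2 (chr12:85328840-85334825), the mitochondrial paralog that lies next to Acot1, had 64.6 and 70.7 CPM in the mutants and 79.5 and 96.1 CPM in the wild types. It was at 77.1% of the wild-type mean, without overlap (log2 fold change -0.38 ± 0.21, adjusted p = 0.568). The reads of Acot1 were 10.1% and 11.9% of those of Acot2 in mutant hearts against 21.1% and 17.4% in wild-type hearts, a ratio that does not depend on the scaling. The genes share sequence: 23.9% of all 50-base words of the longest Acot1 transcript also occur in transcripts of Acot2, so the authors' alignment could exchange reads between them. Acot7, a thioesterase best known from brain, stood at 24.6 and 22.3 CPM in the mutants and at 30.2 and 19.8 CPM in the wild types, with overlap.

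The stretches of 250 bases before the start sites of Acot1 and Acot2 are shown because Acot1 had the lowest ratio and Acot2 is its neighbour and paralog. Sequences here and below are from RefSeq (GRCm38.p6, a later build than the mm9 of the counts), 5′ to 3′ on the strand of the gene, and capitals mark matches to GGGCGG (the GC box) or CCAAT (the CCAAT box) on either strand. Both motifs are common, with GGGCGG in 32.7% and CCAAT in 33.8% of 32851 windows of this length. The Acot1 stretch is chr12:84009252-84009501 and the Acot2 stretch chr12:83987611-83987860, both on the plus strand.
Acot1: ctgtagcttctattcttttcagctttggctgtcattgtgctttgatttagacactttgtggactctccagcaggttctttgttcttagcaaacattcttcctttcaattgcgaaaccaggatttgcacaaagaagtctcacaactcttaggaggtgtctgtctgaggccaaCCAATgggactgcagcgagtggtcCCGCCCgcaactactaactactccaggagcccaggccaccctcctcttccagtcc
Acot2: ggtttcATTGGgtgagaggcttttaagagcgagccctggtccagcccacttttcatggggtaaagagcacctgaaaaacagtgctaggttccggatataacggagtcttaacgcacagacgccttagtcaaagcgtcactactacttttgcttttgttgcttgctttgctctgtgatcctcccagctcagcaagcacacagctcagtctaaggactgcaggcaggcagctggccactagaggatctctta
Acot1 has 1 match to each motif close to its start, and Acot2 has 1 match to CCAAT, near the far end of the window, and 0 to GGGCGG.

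In the carnitine shuttle all 5 genes had fitted log2 fold changes below 0, from -0.75 for Cpt1a to -0.075 for Cpt2, and in 3 of them both mutants lay below both wild types, against 22.4% of all tested rows. Cpt1a and Cpt1b encode the liver and muscle forms of carnitine palmitoyltransferase 1, the step at which malonyl-CoA controls entry into the mitochondrion. Cpt1b is the main form of the heart, and per kilobase of transcript it read 147 CPM in the wild types against 11.2 CPM for Cpt1a. Cpt1a (chr19:3323348-3385732 on mm9) had 32.2 and 25.5 CPM in the mutants and 46.5 and 50.4 CPM in the wild types. The mutants were at 59.5% of the wild-type mean (log2 fold change -0.75 ± 0.22, adjusted p = 0.301), below 0 in all 15 alternatives and called in 2, those that leave out a wild type.

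Cpt1b (chr15:89246836-89256293) stood at 343 and 360 CPM in the mutants and at 463 and 385 CPM in the wild types. Its mutants were at 82.9% of the wild-type mean, a difference about as large as that between the wild types, and its log2 fold change was -0.27 ± 0.23 (adjusted p = 0.698). Of the 50-base words of its longest transcript, 93% also occur in the annotated gene Gm44502. No other row of the counts overlapped the span of Cpt1b, and whether its reads were affected is unknown. The liver form was 9.40% and 7.07% of the muscle form by reads in mutant hearts against 10.04% and 13.1% in wild-type hearts. The ratio was thus lower in both mutants, with wild type 1 close to mutant 1.

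The stretch before the start of Cpt1a (chr19:3323051-3323300 on GRCm38.p6, plus strand) is given because Cpt1a had the second lowest ratio of the 32 genes, with capitals as above.
Cpt1a: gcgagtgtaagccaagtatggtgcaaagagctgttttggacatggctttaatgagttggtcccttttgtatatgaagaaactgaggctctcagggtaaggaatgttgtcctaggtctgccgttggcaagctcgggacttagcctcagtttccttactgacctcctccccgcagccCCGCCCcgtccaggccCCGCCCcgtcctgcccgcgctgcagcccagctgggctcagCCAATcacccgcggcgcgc
It holds 2 matches to GGGCGG, both on the reverse strand, and 1 to CCAAT.

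Crat, which encodes carnitine acetyltransferase, had 210 and 231 CPM in the mutants and 322 and 244 CPM in the wild types, without overlap (log2 fold change -0.36 ± 0.23, adjusted p = 0.619). Cpt2, which rebuilds acyl-CoA inside the mitochondrion, and the carnitine-acylcarnitine carrier gene Slc25a20 lay within the spread of the wild types. Cpt2 was at 124 and 135 CPM against 154 and 119 CPM, and Slc25a20 at 84.1 and 81.7 CPM against 106 and 78.3 CPM. The sign of both turned without wild type 1, to 0.12 for Cpt2 and 0.085 for Slc25a20. Acacb, the acetyl-CoA carboxylase that makes malonyl-CoA at the mitochondrial surface and so restrains Cpt1 (chr5:114615527-114700767), was at 145 and 120.0 CPM in the mutants and at 231 and 202 CPM in the wild types. The groups did not overlap (61.3% of the wild-type mean, log2 fold change -0.71 ± 0.22, adjusted p = 0.327).

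**Figure D2:**
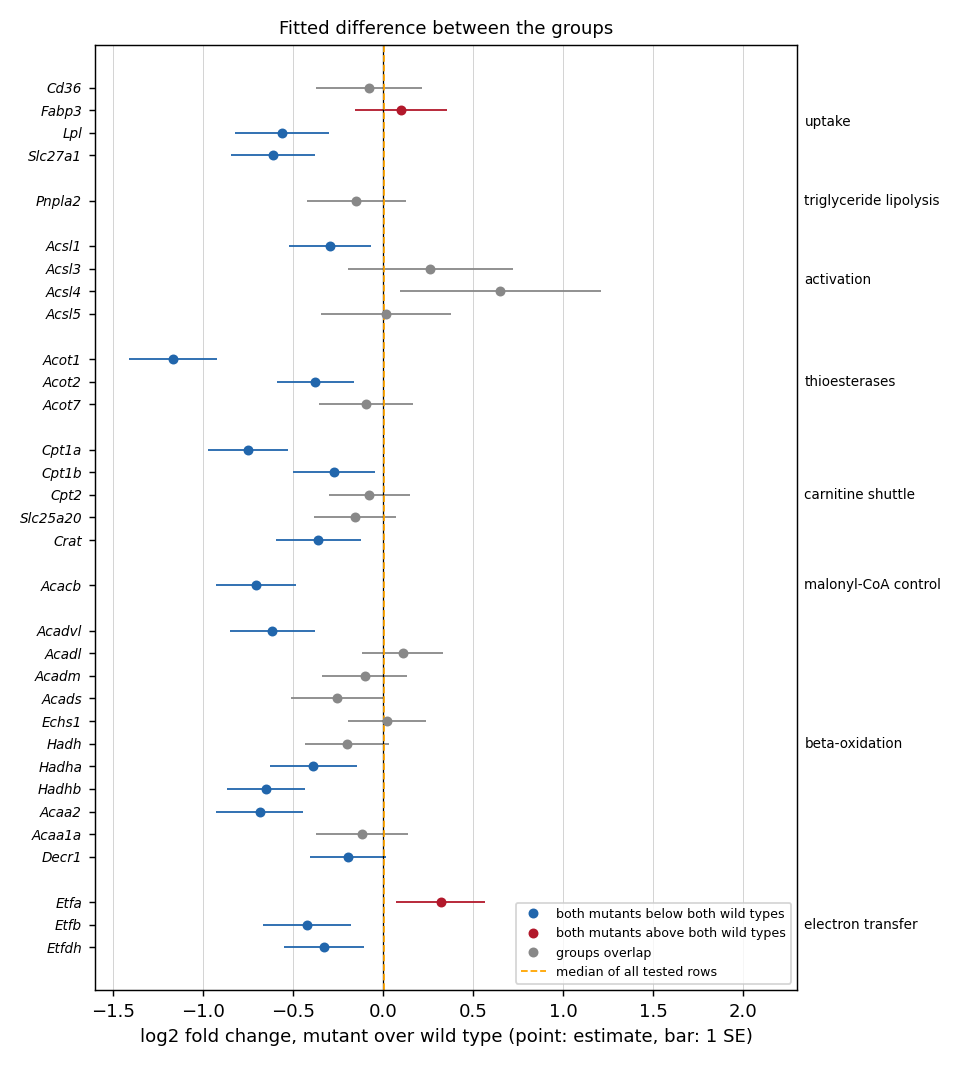
Fitted log2 fold change, mutant over wild type, of the 32 genes (point: estimate, bar: 1 SE), grouped by step and coloured by whether the 2 mutants lie below both wild types, above both or overlap with them; the dashed line is the median of all tested rows. 25 points lie left of 0, Acot1 the farthest at -1.16, and Fabp3 and Etfa are the 2 genes with both mutants higher.

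Within beta-oxidation, 9 of 11 genes had log2 fold changes below 0, against 49.5% of all tested rows, and 5 had both mutants below both wild types, against 22.4%. The enzymes bound to the inner membrane, which handle the longest chains, were all among these 5. Acadvl (chr11:69823694-69828909), which encodes very long-chain acyl-CoA dehydrogenase, had 432 and 413 CPM in the mutants and 713 and 579 CPM in the wild types. It was at 65.4% of the wild-type mean (log2 fold change -0.61 ± 0.24, adjusted p = 0.409) and overlaps Dvl2 on the opposite strand over 2110 bases. The Dvl2 row was itself lower in both mutants, at 2642 and 2700 reads against 5029 and 3627. Whether counting used strand is unknown, and the row may hold reads of either gene. Crat overlaps Dolpp1 over 52 bases, Hadha overlaps Gm444 over 72 bases and Echs1 overlaps Paox over 525 bases, each on the opposite strand. Those rows held few reads: 115 to 202 for Dolpp1, 3 to 14 for Gm444 and 31 to 39 for Paox. Reads of Crat, Hadha and Echs1 were 3496 or more in every library.

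Hadha and Hadhb encode the alpha and beta subunits of the mitochondrial trifunctional protein, which carries out the last 3 reactions of each turn on long chains. Hadhb (chr5:30481829-30511123) had 265 and 267 CPM in the mutants and 423 and 411 CPM in the wild types. Both groups were tight and far apart, with the mutants at 63.8% of the wild-type mean (log2 fold change -0.65 ± 0.21, adjusted p = 0.345). Hadha (chr5:30444844-30481520) had 797 and 829 CPM in the mutants and 1154 and 971 CPM in the wild types, at 76.5% of the wild-type mean (log2 fold change -0.39 ± 0.24, adjusted p = 0.603). By reads, Hadhb was 33.3% and 32.3% of Hadha in mutant hearts against 36.7% and 42.4% in wild-type hearts. The beta subunit was therefore lower in the mutants also relative to its partner. Such a ratio without overlap is common here, at 49.8% of all pairs among the 32 genes. In the longest Hadhb transcript, 61.5% of 50-base words also occur in the annotated gene Gm13910.

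These genes are transcribed in opposite directions from start sites 272 bases apart, and the 228 bases that lie within 250 bases of both starts are shown for that reason (chr5:30155003-30155230 on GRCm38.p6, plus strand, Hadha to the left and Hadhb to the right). Capitals mark the single GGGCGG match, and CCAAT had 0 matches.
Hadha and Hadhb: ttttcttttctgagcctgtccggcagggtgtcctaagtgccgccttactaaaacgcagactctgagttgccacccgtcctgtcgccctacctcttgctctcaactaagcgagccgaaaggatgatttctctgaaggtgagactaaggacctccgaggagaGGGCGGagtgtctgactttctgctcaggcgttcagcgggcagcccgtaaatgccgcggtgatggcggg
The genes on either side of this stretch were both lower in both mutants, and neither passed the test over all rows. Any role of the stretch was not tested.

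The enzymes of the matrix were less uniform. Acaa2, the mitochondrial 3-ketoacyl-CoA thiolase, had 181 and 228 CPM in the mutants and 365 and 293 CPM in the wild types, without overlap (62.2% of the wild-type mean, log2 fold change -0.69 ± 0.24, adjusted p = 0.367). Decr1, which reduces the double bonds of unsaturated fatty acids, stood at 183 and 205 CPM against 221 and 223 CPM, without overlap but by a small margin (log2 fold change -0.19 ± 0.21). The medium-chain dehydrogenase gene Acadm read 445 and 454 CPM in the mutants, between 421 and 544 CPM in the wild types. Acadl, the long-chain dehydrogenase gene, was at 370 and 430.2 CPM in the mutants and 388 and 353 CPM in the wild types, with a log2 fold change of 0.11 ± 0.22 that turned to -0.19 with total counts and to -0.16 with the GC and length correction. Hadh, which encodes the short-chain 3-hydroxyacyl-CoA dehydrogenase, was at 315 and 324 CPM against 414 and 320.3 CPM.

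Echs1, the short-chain enoyl-CoA hydratase, was at 202 and 191 CPM in the mutants, within the 211 and 176 CPM of the wild types. Acads, the short-chain dehydrogenase, stood at 106 and 98.8 CPM against 148 and 96.8 CPM, so its difference came from wild type 1, and the log2 fold change of -0.25 turned to 0.086 without that heart. The peroxisomal thiolase gene Acaa1a followed the same pattern at 28.3 and 26.8 CPM against 36.1 and 23.6 CPM. It shares 34% of its 50-base words with Acaa1b. Set apart by their place in the cell, a split made after the values were seen, the 3 membrane-bound enzymes had a median log2 fold change of -0.61 and the 8 others of -0.16, with 3 of 3 and 2 of 8 without overlap. The share among the 8 was near the 22.4% of all rows.

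Acadm was the single gene of the pathway whose stretch of 250 bases before the start (33 windows of 29 of the 34 genes) held AAGGTCA, the sequence bound by ERR and an extension of the AGGTCA of the next motif, on either strand, against 4.08% of all windows. The repeat bound by PPAR, AGGTCA given in the same direction again after 1 base of any kind, was in 0 of the 33 windows and in 0.0335% of all windows. An exact repeat this rare would seldom occur in 33 windows, so the 0 carries no information on these genes. The Acadm stretch (chr3:153944644-153944893 on GRCm38.p6, minus strand) is printed in the direction of the gene, with the match in capitals, which reads TGACCTT here because it lies on the reverse strand.
Acadm: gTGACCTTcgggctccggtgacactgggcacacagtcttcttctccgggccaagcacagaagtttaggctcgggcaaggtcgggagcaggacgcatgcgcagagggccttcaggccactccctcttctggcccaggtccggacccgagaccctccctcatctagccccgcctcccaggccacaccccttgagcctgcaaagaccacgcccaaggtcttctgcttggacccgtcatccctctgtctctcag
The levels of Acadm overlapped between the groups, as given above. Acaa2, Cpt1b, Crat, Decr1 and Lpl had no window in the RefSeq table.

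Electron transfer from the dehydrogenases to the respiratory chain showed opposite directions in 2 subunits of 1 protein. Etfa and Etfb encode the alpha and beta subunits of the electron transfer flavoprotein, and Etfdh the dehydrogenase that takes over its electrons. Etfa (chr9:55302330-55360050) had 306 and 278 CPM in the mutants and 194 and 274 CPM in the wild types. The mutants lay above both wild types, in the case of mutant 3 by a narrow margin (log2 fold change 0.32 ± 0.25, adjusted p = 0.675), and the value was -0.059 with the GC and length correction. Etfb (chr7:50699513-50713152) had 276 and 262 CPM in the mutants and 420 and 299.5 CPM in the wild types, without overlap (log2 fold change -0.42 ± 0.25, adjusted p = 0.579). Etfdh (chr3:79407734-79432636) was at 214 CPM in each mutant and at 241 and 296 CPM in the wild types, without overlap (log2 fold change -0.33 ± 0.22, adjusted p = 0.634). In Etfb, 67.3% of the 50-base words are shared with Gm45233.

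Ratios of reads within a library do not depend on scaling. Reads of Etfb were 90.2% and 94.2% of those of Etfa in mutant hearts against 217% and 109% in wild-type hearts, and reads of Etfdh were 69.9% and 77.1% of Etfa against 124% and 108%. Acadl reads were 85.7% and 104% of those of Acadvl in mutant hearts against 54.4% and 61.0% in wild-type hearts, and those of Acadm 103% and 110% against 59.0% and 94.0%. Fabp3 reads were 118% and 138% of those of Lpl in mutant hearts against 83.1% and 77.5% in wild-type hearts. The groups did not overlap in any of these 5 ratios. Of 16 pairs computed, 13 were without overlap, and the 3 with overlap were Acsl5 over Acsl1, Acsl3 over Acsl1 and Slc25a20 over Cpt1b. The pairs were picked by their role with the values known, and of all 496 pairs among the 32 genes 247 (49.8%) had ratios without overlap, so such a ratio is common here.

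**Figure D3:**
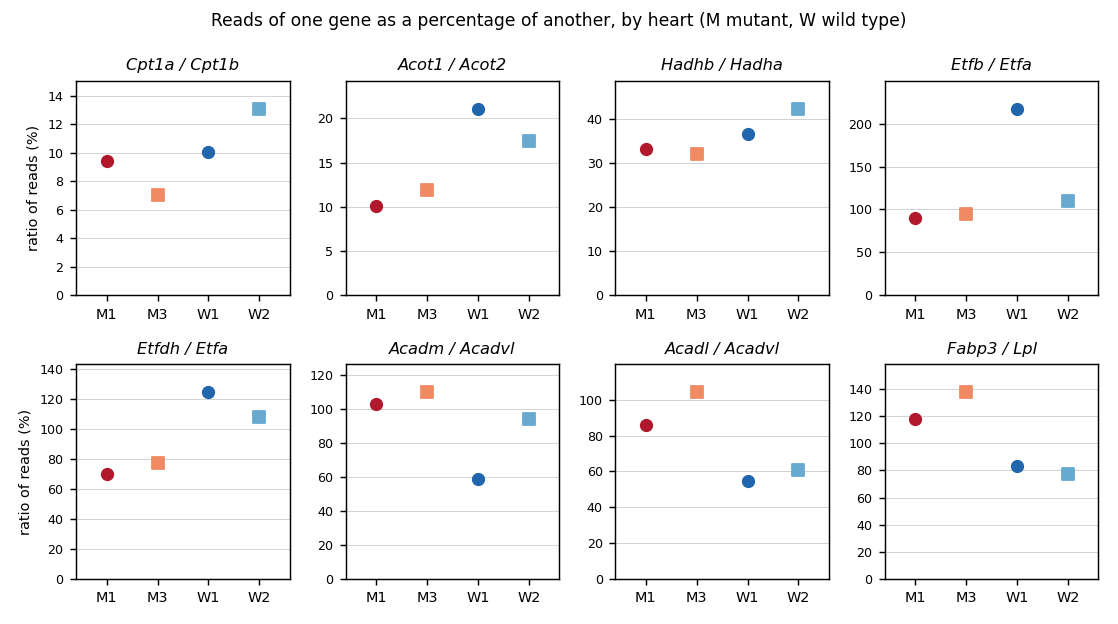
Reads of 1 gene as a percentage of the reads of another in the same heart (M1 and M3 mutants, W1 and W2 wild types), for 8 of the 13 pairs of genes without overlap. The gap between the groups is wide for Acot1 over Acot2 and narrow for Cpt1a over Cpt1b, where mutant 1 is at 9.40% and wild type 1 at 10.04%.

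Summed over its genes, the pathway stood at 10429 and 10384 CPM in the mutants and at 12696 and 12303 CPM in the wild types. Beta-oxidation summed to 3324 and 3467 CPM against 4494 and 3991 CPM, the carnitine shuttle to 793 and 834 CPM against 1091 and 878 CPM, and uptake to 4750 and 4551 CPM against 5266 and 5590 CPM. Electron transfer came to 795 and 754 CPM against 854 and 869 CPM. In these 4 sums both mutants were below both wild types. A sum weights abundant genes, and Fabp3 and Lpl carried most of uptake.

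The difference between the wild types was often as large as that between the groups. Over the 32 genes, the median absolute log2 ratio of wild type 1 to wild type 2 was 0.34, that of mutant 1 to mutant 3 was 0.12, and over all tested rows these were 0.42 and 0.19. Wild type 1 was the higher wild type for 19 of the 32 genes. In the authors' deposited table, which compares single libraries, 29 of the 32 genes had a p under 0.001 between the wild types (22.8% of all rows) and 22 between the mutants (14.3% of all rows). Between single mutants and wild types, the authors' deposited table had 21 to 31 genes at that p, against 19.2% to 28.8% of all rows. Of the genes at that p, 21 to 28 were lower in the mutant and 0 to 3 higher. All rows leaned the same way, with 3738 to 7100 lower and 945 to 2412 higher. Between the wild types, 19 genes were higher in wild type 1 and 10 lower, against 3931 and 2817 of all rows. Between the mutants, 22 were higher in mutant 1 and 0 lower, against 4045 and 195 of all rows. On TMM-scaled CPM, mutant 1 was instead above mutant 3 for 12 of the 32 genes, against 49.9% of all tested rows. The number of p-values under 0.001 therefore does not set the group difference apart from the difference between hearts of 1 group.

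**Figure D4:**
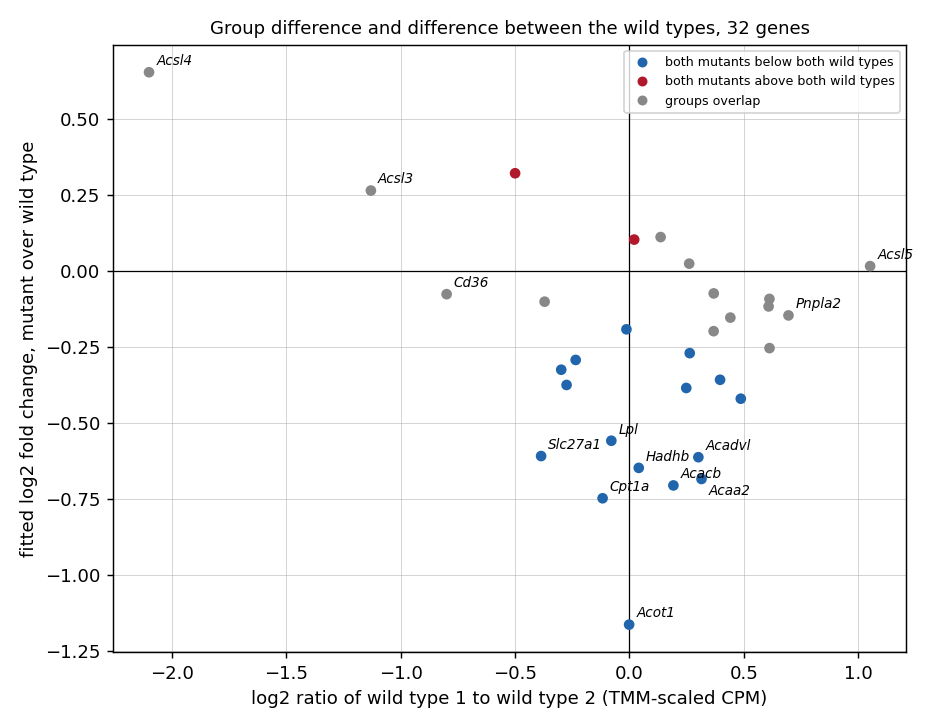
Fitted log2 fold change between the groups against the log2 ratio of wild type 1 to wild type 2 for the 32 genes, coloured as in the plot of fitted differences. Acot1, Cpt1a, Hadhb and Lpl sit near 0 on the horizontal axis and below -0.5 on the vertical, while Acsl4, Acsl3, Acsl5 and Cd36 differ more between the wild types than between the groups.

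Leaving out a heart changed which genes were called. Without wild type 1, 6 genes were called lower (Acacb, Acot1, Acot2, Cpt1a, Hadhb and Slc27a1) where 4.33% of all rows were, and 0 higher, against 7.87%. Without wild type 2, 9 genes were called lower (Acaa2, Acacb, Acads, Acadvl, Acot1, Cpt1a, Crat, Etfb and Hadhb) where 8.83% of all rows were, and 2 higher (Acsl4 and Etfa) where 13.2% were. Without mutant 1 or mutant 3, 0 genes were called in edgeR, where 0.0483% and 0.0719% of all rows were called lower and 0.332% and 0.581% higher. At an unadjusted p under 0.05, 2 and 1 genes were lower in those fits, against 1.05% and 0.833% of all rows, and 0 higher, against 3.26% and 3.53%. At that p, 12 genes were lower and 1 higher without wild type 1, against 11.6% and 15.6% of all rows, and 18 lower and 4 higher without wild type 2, against 16.2% and 20.0%. Genes with the mutants below the wild types numbered 16, 17, 18 and 25 without mutant 1, mutant 3, wild type 1 and wild type 2, against 28.9%, 28.3%, 39.6% and 41.8% of all rows. In the fits with 1 wild type the spread comes from the 2 mutants alone, which were the more alike pair. Acacb, Acot1, Cpt1a and Hadhb were called lower in both of those fits, which use the same mutants and so are not independent. The share of all rows called in both is not given here. With all 4 hearts, the adjusted p of these genes in edgeR was 0.169 to 0.345.

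Settings other than the choice of hearts also moved these counts. With scaling by total counts, 1 gene was called lower (Acot1, log2 fold change -1.46) where 0.496% of all rows were, and 12 had an unadjusted p under 0.05 and were lower, against 12.3%. In that scaling 24 genes had both mutants below both wild types, against 40.4%, and 30 had log2 fold changes below 0, against 72.9%. With every row that had a read, 1 gene was called lower, again Acot1, against 0.310%. With the GC and length correction, 0 genes were called, against 0.146% lower, while 11 were lower at an unadjusted p under 0.05, against 9.13%. In that fit 29 of the 32 genes were below 0, against 56.5% of all rows, and 16 had both mutants below both wild types, against 22.7%.

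**Figure D5:**
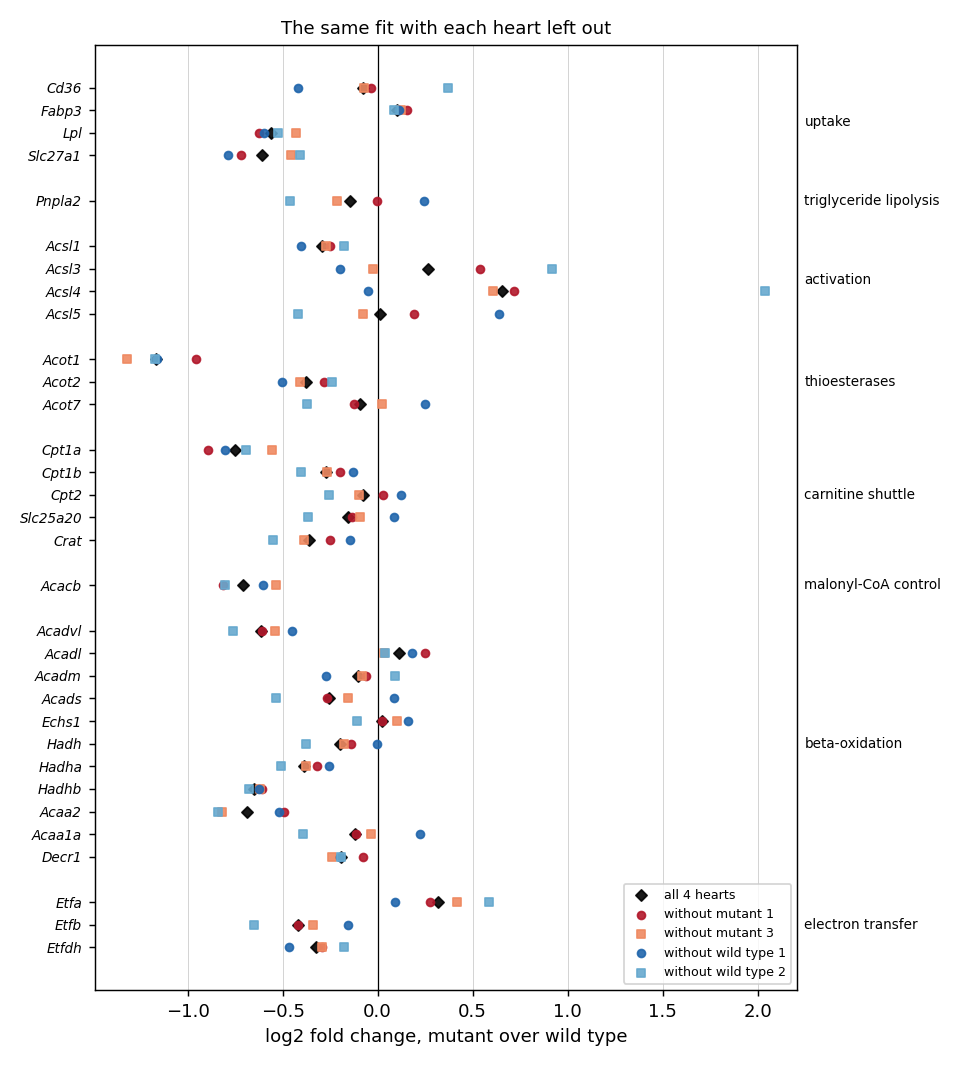
Fitted log2 fold change of the 32 genes with all 4 hearts (black diamonds) and with each heart left out in turn. Acot1, Cpt1a, Acacb, Acadvl, Hadhb, Acaa2, Lpl and Slc27a1 stay left of 0 in all 5 fits, while Cd36, Pnpla2, Acsl3, Acsl4, Acsl5 and Acot7 cross 0.

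Other genes of lipid uptake, storage and oxidation lay on both sides of 0. Of 73 such genes, 70 had a row and 67 were tested. Of these 67, 0 passed over all rows in edgeR, and at an unadjusted p under 0.05 there were 10 lower, against 4.38% of all rows, and 4 higher, against 6.49%. Both mutants lay below both wild types for 22, against 22.4% of all rows, and above for 14, against 22.3%, so the counts of higher genes were near those shares. Their median log2 fold change was -0.09, with 40 of 67 below 0, against 49.5%. DESeq2 called 2 lower (Ucp3 and Ucp2), against 0.261% of rows, and 1 higher (Dbi), where 1.18% of rows were called in either direction. Those of smallest p that stood lower were the mitochondrial carrier genes Ucp3 and Ucp2, the carnitine transporter gene Slc22a5 and the glycerol-phosphate acyltransferase gene Gpam.

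Slc22a5 had 13.5 and 12.2 CPM in the mutants and 21.8 and 21.6 CPM in the wild types, and Gpam 74.7 and 54.1 CPM against 104 and 116 CPM. Ucp2 had 46.9 and 47.1 CPM in the mutants but 210 and 86.2 CPM in the wild types. Ucp3 was at 33.7 and 28.8 CPM against 68.8 and 73.5 CPM. In all 4 the groups did not overlap, and the wild types of Ucp2 were far apart. Those of smallest p that stood higher were Dbi (the acyl-CoA-binding protein), Acot9, G0s2 (an inhibitor of Pnpla2) and Fabp4. Dbi had 96.5 and 106 CPM in the mutants and 54.1 and 54.6 CPM in the wild-type hearts (log2 fold change 0.90, adjusted p = 0.191). G0s2 had 43.3 and 47.5 CPM against 32.3 and 25.8 CPM, Acot9 14.7 and 12.2 CPM against 7.79 and 8.35 CPM, and Fabp4, the binding protein of fat and endothelial cells, 322 and 461 CPM against 133 and 274 CPM. Peroxisomal oxidation, with 15 tested genes, had 5 genes with both mutants lower, against 22.4% of all rows, and 3 with both higher, near the 22.3% of all rows, and a median of -0.09.

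Markers of the cell types in the tissue were read beside these values. All 9 cardiomyocyte markers were detected, at a summed level of 55297 and 60822 CPM in the mutants and 51433 and 47188 CPM in the wild types. Myl2 alone read 16947 and 18459 CPM against 10871 and 8436 CPM, while Myh6 read 10780 and 14172 CPM against 15092 and 15579 CPM. The sum thus does not give the direction of the markers as a set. Without overlap, 2 of the 9 were lower (Myh6 and Ryr2) and 3 higher (Tnnt2, Myl2 and Myl3), against 22.4% and 22.3% of all rows. Adipocytes also express Lpl, Pnpla2, Acsl1 and Cd36. Of 7 adipocyte markers 6 were detected, with Lep at 0 in all libraries and Adipoq at 9 and 8 reads in mutant hearts against 3 and 0, and the list summed to 5.51 and 5.02 CPM in the mutants and 3.21 and 0.201 CPM in the wild types. Endothelial markers (7 of 7 detected) summed to 467 and 595 CPM against 617 and 545 CPM. Fibroblast markers (6 of 6) summed to 702 and 797 CPM against 735 and 617 CPM, and macrophage markers (6 of 6) to 151 and 130.3 CPM against 152 and 102 CPM.

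Of 4 brown fat markers, Cox7a1, which heart muscle also expresses, carried the list, and Ucp1 had 19, 0, 0 and 0 reads. Atrial markers (3 of 3 detected) summed to 140 and 113 CPM in the mutants and to 55.3 and 5.48 CPM in the wild types, which were far apart. All 3 had both mutants above both wild types, against 22.3% of all rows, and 0 were called in edgeR. Fast skeletal muscle markers (6 of 6 detected) were at 213 CPM in mutant 1 and 6.39 to 8.64 CPM in the other hearts. The part of adipocyte, atrial and skeletal muscle transcripts in the differences described was not tested. In the fit without mutant 1, the median log2 fold change of the 32 genes was -0.17, against 0.03 over all rows. It was -0.23 with all 4 hearts. That fit rests on 1 mutant heart, so it does not test the part of these transcripts.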

How the data were processed

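RNA sequencing of 4 right ventricles, 2 Ezh2-deficient and 2 wild type, was grouped by sample titles. Per the labels' protocols, libraries came from polyadenylated RNA and were digested with a duplex-specific nuclease, which lowers abundant transcripts and may compress their differences. TopHat 1.2.0, Cufflinks and the build mm9 are named in the submitters' processing notes, with counting rule, strand use and annotation not given in the sources used here. Read counts per row, as deposited, were the input, and the authors' CPM equals reads over the library's total. The authors' deposited ratio (fold) for each pair of libraries gave only the direction, and the authors' deposited p-values were only counted.

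The tests used edgeR 4.0.16 under R 4.3.3 (quasi-likelihood, filterByExpr, TMM, 4 libraries, no covariate, two-sided, Benjamini-Hochberg over 16128 rows). Levels are TMM-scaled CPM, and the SE comes from the F statistic. Whether the hearts differ by litter or day is not stated, and p-values measure the spread between these hearts. With 3 ways to split the libraries, no relabelling test can pass. Alternatives were DESeq2 1.42.0, limma-voom 3.58.1, other scalings and filters, and leaving out hearts or rows. A GC and length correction was added after the data were seen (loess on the longest GENCODE M21 transcript, 80.7% of rows). The genes and lists were chosen with earlier results of these data known. All 34 genes were named, and of the other pathway genes the 4 of smallest p in each direction.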

Additional observations from a re-analysis of the deposited data

How the results depend on the processing

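Rows called over all genes numbered 21 (17 higher, 4 lower) and varied most: 204 with DESeq2, 156 with total counts (76 higher, 80 lower), 317 without the filter, 6 with at least 10 reads in every library, 8 without rows on X and Y, 73 with the GC and length correction and 63 to 3675 with a heart left out. Scaling by total counts moved the median of all rows to -0.28 and that of the 32 genes to -0.51, the same distance of -0.23 below it. Of the 32 genes, 1 was called with DESeq2, with total counts and without the filter, Acot1 each time, and 0 to 11 with a heart left out. At an unadjusted p under 0.05 there were 12 genes with total counts (12.3% of all rows were lower at that p), 11 with the GC and length correction (9.13%) and, in either direction, 1 to 22 with a heart left out (18 lower and 4 higher without wild type 2, against 16.2% and 20.0% of all rows). Genes with the mutants below the wild types numbered 16 to 25 and the median log2 fold change ranged from -0.39 to -0.17 with a heart left out. Other pathway genes called were 3 with DESeq2, 2 with total counts, 2 without the filter and 0 to 24 with a heart left out (24 without wild type 2, where 22.0% of all rows were called). The other alternatives run for each count left it within 1.5 times of the value reported. Genes with the mutants below the wild types were not recounted here with DESeq2 or limma-voom, nor the other pathway genes with the GC and length correction.

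Signs turned in 25 of 479 comparisons of a gene's log2 fold change with an alternative, and none of the turned values was called. With total counts these were Acsl5 (-0.29), Echs1 (-0.26), Fabp3 (-0.19), Acadl (-0.19) and Acsl3 (-0.039), and with the GC and length correction Echs1 (-0.18), Etfa (-0.059), Fabp3 (-0.33) and Acadl (-0.16). With a heart left out, values crossed 0 for Acsl5 (-0.42 to 0.64), Acot7 (-0.37 to 0.25), Acaa1a (-0.40 to 0.22), Echs1 (-0.11 to 0.16), Acads (-0.53 to 0.086), Pnpla2 (-0.46 to 0.24), Slc25a20 (-0.36 to 0.085), Cpt2 (-0.25 to 0.12), Acsl4 (-0.049 to 2.04), Acadm (-0.27 to 0.090), Acsl3 (-0.20 to 0.92) and Cd36 (-0.42 to 0.37). The cause was not tested. In fits with a single heart in a group, that heart is taken to vary as the others do. No paired analysis was possible because the groups share only 1 replicate number. Depth limits Acsl3 most, at 32 to 64 reads per library.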
